A study of Mus musculus with 13 samples.

Results

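The B-ALL genome was read here as the set of its DNA variants that the empty control genome lacked, together with all of its copy number calls. A small variant was taken when the B-ALL table held it on chromosomes 1 to 19 with at least 10 reads, a Phred-scaled quality score of at least 100, at least 4 alternative reads and an alternative read share of at least 0.2. It also had to lie outside annotated segmental duplications, and the control table had to hold no call of the same position and alleles at any depth. These thresholds left 1653 single-nucleotide variants (SNVs), which were 4.21% of the 39260 SNV calls of B-ALL on these chromosomes. They left 5551 insertions and deletions (INDELs), 4.92% of 112738. With the 254 copy number calls this made 7458 items, out of 516604 distinct small variants of the 7 libraries and 1626 copy number calls of 6 libraries.

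The study sequenced whole genomes of acute leukaemias driven by retroviral N-Myc in mice and of an empty control, with 1 library each. The B-ALL library came from 2000000 B220+GFP+ bone marrow cells of C57BL/6 mice, and the control from 1000000 GFP+ cells of empty control mice, for which no lineage marker is named. All libraries carry the tag 8 to 10 weeks, and the labels do not say whether a library is 1 mouse or several, nor whether B-ALL and AML (Mac1+Gr1+GFP+) came from the same animal. Beside them stood T-ALL (CD3+GFP+), AUL (negative for B220, CD3, Mac1 and Gr1) and the myeloid and T-lymphoid fractions of a mixed-phenotype leukaemia (M-MPAL and T-MPAL).

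B-cell acute lymphoblastic leukaemia is a cancer of B-cell precursors, cells that cut and rejoin their immunoglobulin genes to build a pre-B receptor and then an antibody. N-Myc is a transcription factor of the Myc family that drives growth and division, and the loss of p53, which halts or kills damaged cells, is a known partner of Myc proteins in lymphoid cancers. A whole genome also carries inherited variants, and without normal DNA of the same animal an inherited and an acquired variant cannot be told apart.

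The variants found in B-ALL and AML alone, or in B-ALL alone, are the ones the results turn on, and the sequences around 4 of them that lie before a gene's start are shown first. They are RefSeq promoter stretches (GRCm38.p6, the assembly of mm10, gene strand), with the changed base in capitals. In every case the reference base of the deposited call matched the base of the RefSeq stretch.
Kif20b, chr19:34922155-34922275: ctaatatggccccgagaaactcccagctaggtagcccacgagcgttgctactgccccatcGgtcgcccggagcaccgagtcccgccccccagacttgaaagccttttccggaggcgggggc
Cnep1r1, chr8:88118575-88118695: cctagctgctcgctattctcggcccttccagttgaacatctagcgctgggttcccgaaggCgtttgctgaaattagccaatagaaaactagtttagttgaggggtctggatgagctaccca
Npy, chr6:49822460-49822538: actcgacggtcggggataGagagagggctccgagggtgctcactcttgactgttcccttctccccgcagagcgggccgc
Parp2 and Rpph1, chr14:50807667-50807787: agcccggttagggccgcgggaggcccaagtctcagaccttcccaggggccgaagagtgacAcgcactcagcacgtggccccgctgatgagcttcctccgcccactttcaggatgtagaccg

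The Kif20b change lay at -143 bases from the start of this kinesin gene of cell division, on 8 of 17 reads in B-ALL and 12 of 27 in AML. The Cnep1r1 change, at -124 bases from the start of this gene of a nuclear envelope phosphatase subunit, had 7 of 16 reads in B-ALL and 16 of 33 in AML. The same change lay nearer the start of Gm2716 on the other strand, at -28 bases. The Npy change, at -232 bases from the start of the neuropeptide Y gene, was called in B-ALL alone, on 7 of 19 reads. The last stretch stood apart in depth: 3 changes inside Rpph1, the RNA subunit of RNase P, of which the capital marks 1, were read at 198 to 214 reads, all 3 of them known to dbSNP, against a median of 26 reads over all B-ALL SNVs of the set. In all, 10 of the 1653 SNVs fell in a RefSeq promoter window of 250 bases before to 50 after a start. Of these 10, 6 were called in B-ALL alone or in B-ALL and AML alone. The 3 neighbouring changes inside Rpph1 are among these 6, so the 6 are not separate places. The share of all B-ALL SNV calls in such windows is not given here, so whether 10 is many or few was not tested.

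Short tandem repeats held most of the INDELs, as they did among all B-ALL INDEL calls, and 4 of the repeats that gained 4 bases in B-ALL and AML alone are shown as the deposited tables give the tract (mm10, plus strand), with the gained bases in capitals.
chr5:89155874-89155929, intron of Slc4a4: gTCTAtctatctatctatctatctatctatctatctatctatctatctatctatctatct
chr14:56049439-56049476, intergenic: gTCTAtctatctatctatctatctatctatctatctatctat
chr5:66734857-66734894, intergenic: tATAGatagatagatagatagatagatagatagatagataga
chr16:16285681-16285724, intergenic: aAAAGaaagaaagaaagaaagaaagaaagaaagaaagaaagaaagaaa

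The insertion in Slc4a4, a bicarbonate transporter gene, was on 14 of 14 reads in B-ALL and 13 of 13 in AML. The chromosome 14 insertion was on 16 of 32 reads and 7 of 25, and that at 66734857 on chromosome 5 on 14 of 24 and 4 of 13. The chromosome 16 insertion was on 13 of 16 reads in B-ALL and 20 of 20 in AML. The first 3 tracts repeat the same unit, AGAT read on either strand and from any of its bases.

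B-ALL held more SNVs that the control lacked than the control held that B-ALL lacked. The 1653 SNVs (95% exact Poisson interval 1574 to 1735) stood against 605 (557.7 to 655.2) of the control that pass the same thresholds and have no call in B-ALL, a ratio of 2.73. They were 1.85% of the control's SNV calls. By the same rule against the control, AML had 1700 SNVs and T-ALL 2348. For INDELs the ratio was 1.23, with 5551 (5406 to 5699) in B-ALL and 4503 (4372 to 4636, 4.69% of its calls) in the control, and AML had 6677 and T-ALL 7574. Each group is a single library, so the spread between replicates is unknown and no test was made. The intervals describe counting error alone and treat each variant as separate, although 201 of the B-ALL SNVs lay in dense groups. Reads were not tagged by molecule, so several alternative reads of a variant may come from 1 fragment. The tables also differ at the low end: the lowest depth in the control and MPAL tables is 5 reads, against 1 read in those of B-ALL, so a shallow control call of a B-ALL variant would not be listed. The share of this in the counts was not tested. The control was prepared with fewer cells and described with the MPAL fractions, so that this setting and the difference from B-ALL cannot be told apart.

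Most of the B-ALL SNVs were also called in AML. The share was 76.3% (1262 of 1653, exact Clopper-Pearson interval 74.2 to 78.4), against 53.3% in T-ALL (50.9 to 55.7), 47.3% in AUL (44.9 to 49.8), 42.7% in T-MPAL (40.3 to 45.1) and 41.4% in M-MPAL (39.1 to 43.9). Among INDELs it was 46.6% in AML (45.2 to 47.9), 36.5% in T-ALL, 34.1% in AUL and 28.7% in each MPAL fraction. The interval of AML lay above those of the 4 other libraries for both kinds of variant. In the other direction, 78.1% (76.1 to 80.1) of the 1700 AML SNVs absent from the control were called in B-ALL, against 42.2% of those of T-ALL and 15.05% of those of AUL. The MPAL libraries share with the control a lowest listed depth of 5 reads and a preparation from 1000000 cells. A variant unlisted in the control for such a setting may be unlisted in MPAL as well. The part of this in the MPAL shares was not tested.

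**Figure D1:**
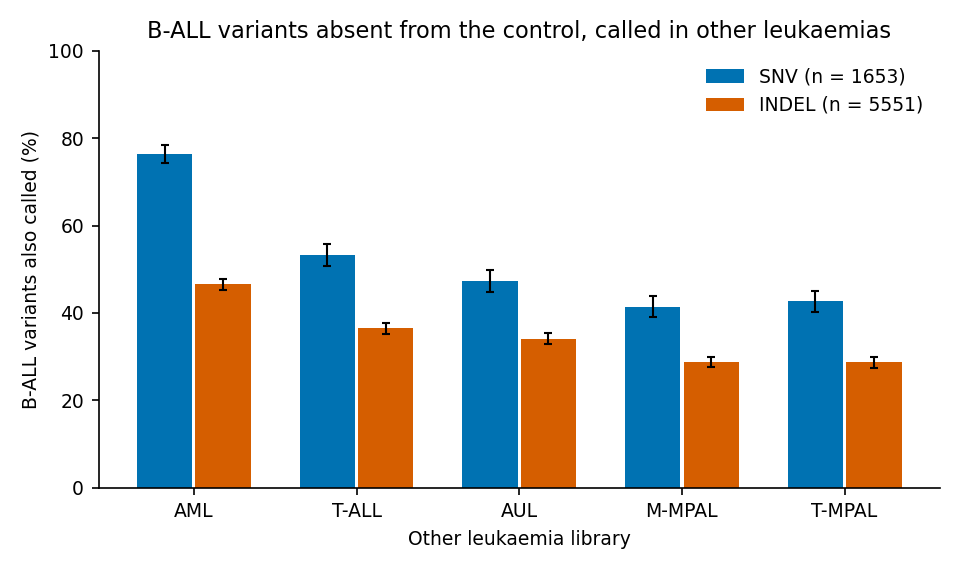
Share of the B-ALL SNVs (blue) and INDELs (orange) absent from the control that each other leukaemia library also held, in percent, with 95% exact Clopper-Pearson intervals. AML stands highest for both kinds, at 76.3% of SNVs and 46.6% of INDELs. The MPAL libraries, like the control, list no call under 5 reads.

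Sharing split the SNVs into 3 sets. The largest held 1102 SNVs that T-ALL, AUL or an MPAL fraction also had, whether or not AML did. A second set of 347 (311.4 to 385.5) was called in B-ALL and AML and in no other library, and the last, of 204 (177 to 234), in B-ALL alone. The pair with AML is the one such pair of size: the SNVs shared with exactly 1 other leukaemia numbered 20 for T-ALL, 15 for AUL, 11 for M-MPAL and 10 for T-MPAL. The INDELs gave 3452, 685 and 1414 in the same 3 sets. Those shared with exactly 1 other leukaemia were 685 for AML and 297 for T-ALL, 233 for AUL, 188 for M-MPAL and 180 for T-MPAL.

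The 3 sets differed in what they were. Of the 1102 SNVs shared more widely, 64.3% were listed in dbSNP and 30.3% had a homozygous genotype. Of the 380 called in all 5 other leukaemias, 75.8% were in dbSNP and 41.3% were homozygous, so that here the control was the library without the call. In B-ALL and AML alone 14.7% were in dbSNP and 2 of 347 were homozygous, and in B-ALL alone 17.6% and 7 of 204.

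Alternative reads were rarer in the sets with little sharing. The median alternative read share was 0.388 (exact interval of the median 0.375 to 0.409) in B-ALL alone, 0.40 (0.385 to 0.412) in B-ALL and AML alone and 0.609 (0.585 to 0.633) among those shared more widely. At the 347 sites of B-ALL and AML alone the median in AML was 0.455. The share was lower in B-ALL than in AML at 228 of these sites, higher at 113 and equal at 6. The rule asks for a share of at least 0.2 in B-ALL but not in AML, so it trims B-ALL from below and not AML. Just inside that threshold the lowest share was 0.2015, and of 23 SNVs that failed it alone the highest was 0.1983. Quality was the threshold that decided most: 2517 SNVs and 40812 INDELs failed it alone, and depth alone 449 and 2996.

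**Figure D2:**
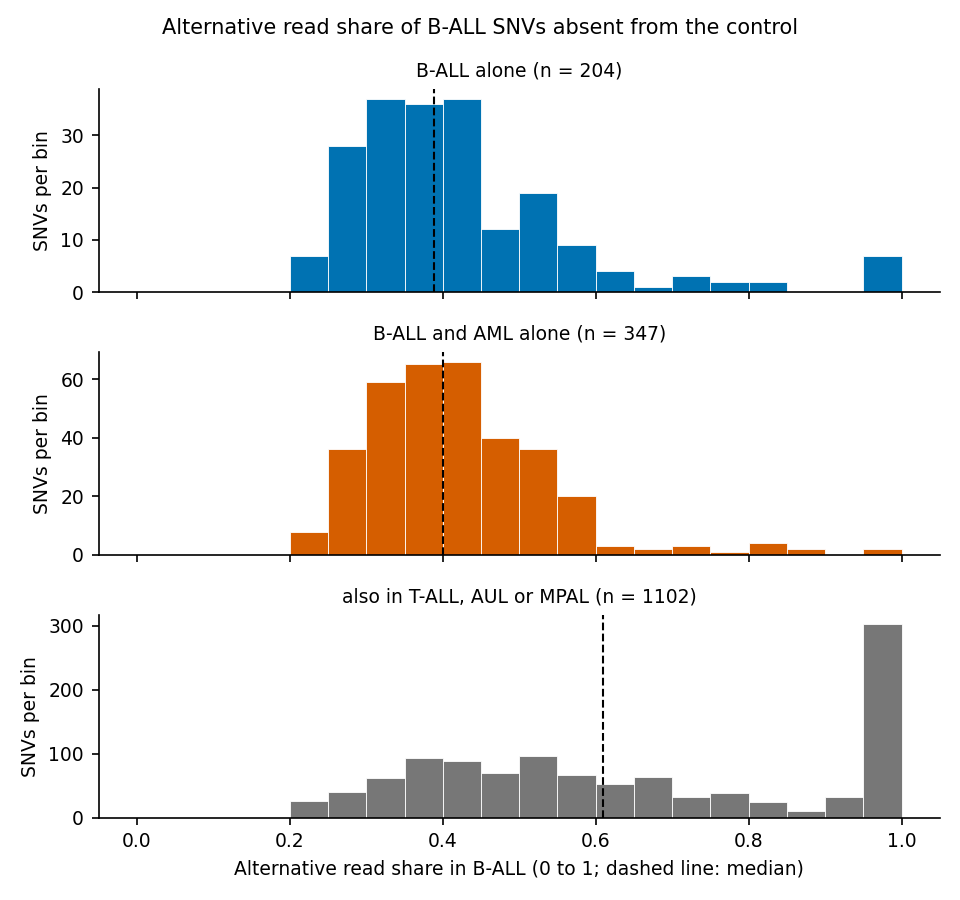
Number of B-ALL SNVs absent from the control per bin of alternative read share in B-ALL (horizontal axis, 0 to 1), in 3 panels by sharing, with the median as a dashed line. The sets of B-ALL alone and of B-ALL and AML alone have medians of 0.388 and 0.40, while the more widely shared set has a second group near 1 and a median of 0.609.

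**Figure D3:**
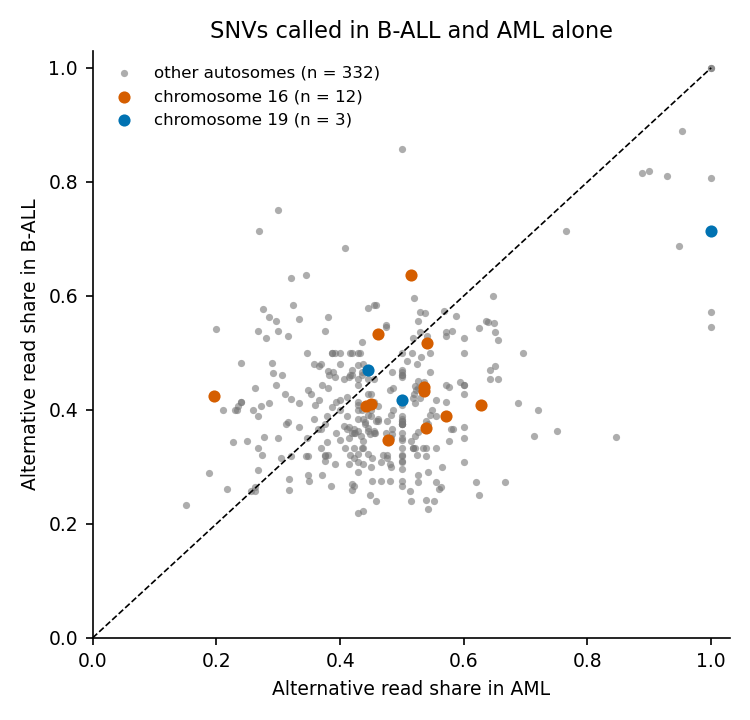
Alternative read share in B-ALL (vertical axis) against AML (horizontal axis) at the 347 SNVs called in these libraries alone, with the line of equal shares; chromosomes 16 and 19 are coloured. More points lie under the line (228) than above it (113).

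Base changes were folded to the pyrimidine of the pair, so that a change from G to A counts as C>T. In B-ALL and AML alone 45.0% (39.6 to 50.4) of the SNVs were C>T, and 30.4% (24.2 to 37.2) of those of B-ALL alone. These intervals do not overlap, but they treat each SNV as separate and are not a test. The M-MPAL and T-MPAL fractions, the other pair with many variants of its own, had 45.8% (41.5 to 50.2) among the 528 SNVs that they alone shared. C>A changes were 21.6% (16.1 to 27.8) in B-ALL alone and 14.4% (10.9 to 18.6) in B-ALL and AML alone, intervals that overlap. Over all 1653 SNVs the C>T share was 36.1% (33.7 to 38.4), near 35.2% in AML and 33.2% in T-ALL by the same rule, and the control set that B-ALL lacked had 42.1% (38.2 to 46.2).

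Simple repeats held 84.6% of the 5551 INDELs, near the 82.0% of all B-ALL INDEL calls on these chromosomes, and 166 lay outside all annotated repeats. Deletions led among all INDELs, with 64.5% (63.2 to 65.7). In B-ALL and AML alone insertions led: they were 55.3% (51.5 to 59.1) of 685, against 37.3% (34.7 to 39.8) in B-ALL alone and 30.9% (29.3 to 32.4) among those shared more widely. Changes of 4 bases were 34.5% (30.9 to 38.1) in B-ALL and AML alone and 20.2% (18.2 to 22.4) in B-ALL alone. Of these 4-base changes the AGAT unit made up 35.2% (83 of 236) in B-ALL and AML alone and 11.5% (33 of 286) in B-ALL alone, where 37.1% were ACAC, a pair of AC units. Among the INDELs shared more widely the AGAT unit was higher still, at 41.1% of the 4-base changes (273 of 664), which were 19.2% of that set.

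The MPAL pair had like values, with 58.97% insertions (55.4 to 62.5), 39.4% changes of 4 bases (35.95 to 43.0) and AGAT as 32.4% of these. Insertions were 51.3% in T-ALL alone, 42.2% in AML alone and 24.05% in the control set that B-ALL lacked. Insertions led in M-MPAL alone too (55.4%), so that the balance of insertions and deletions varied among sets of single libraries as well. Changes of 4 bases were 32.3% (30.4 to 34.25) in M-MPAL alone, 27.4% in T-ALL alone and 21.5% in AML alone. The AGAT unit made up 18.4%, 20.4% and 12.8% of these.

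**Figure D4:**
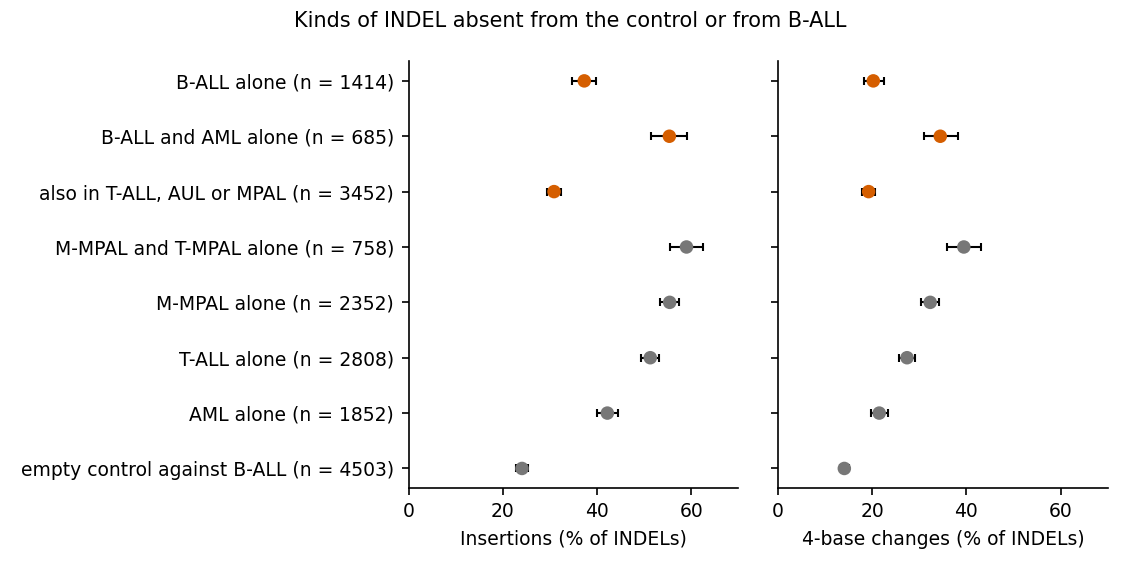
Insertions (left) and 4-base changes (right) as percent of the INDELs of each set, with 95% exact intervals; orange points are the 3 sets of B-ALL and grey points other libraries under the same thresholds. B-ALL and AML alone (55.3% and 34.5%) lie near the MPAL pair (58.97% and 39.4%) and above B-ALL alone (37.3% and 20.2%). M-MPAL alone lies near them too (55.4% and 32.3%).

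Part of the SNVs came in dense groups. There were 22 groups of at least 5 SNVs with gaps of at most 1000 bases, which held 201 SNVs (12.2%). Of these SNVs 5 were in B-ALL alone and 13 in B-ALL and AML alone, and all 22 groups had a median depth above the 26 reads of the whole set. In 4 groups the SNVs were called in T-ALL and AML but in none of AUL, M-MPAL and T-MPAL. These 4 held 83 SNVs, all 83 in the repeat class LTR, which holds retrovirus-like elements. That class held 17.1% of all 1653 SNVs and 16.3% of all B-ALL SNV calls. T-ALL had 71 of the 83 and AML 74.

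The largest of the 4 spanned 7669 bases on chromosome 8 (123426442 to 123434110, intergenic), with 45 SNVs at a median depth of 53. B-ALL had 50 SNV calls of any quality there at a median depth of 52 reads, T-ALL 44 at 68.5 and AML 52 at 57, while AUL, M-MPAL, T-MPAL and the control had 0. Copy number calls overlapped its first part at 4 copies in B-ALL and 6 in T-ALL, and none did in AML. The last calls of B-ALL and T-ALL on chromosome 8 ended at 123428000, so most of the group lay outside them. Another of the 4 held 11 SNVs on chromosome 12 (92889599 to 92890983). There the libraries without these 11 were not empty of calls: AUL had 8 SNV calls of any quality, M-MPAL 11, T-MPAL 9 and the control 10, at median depths of 34 to 43 reads, against 19 at 61 in B-ALL. Both of the others lay inside the antibody light chain locus Igk, and are given with the receptor loci below.

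Protein-altering variants were few. The set held 13 of them (12 missense SNVs and 1 frameshift), in 10 of 20661 protein-coding genes of chromosomes 1 to 19, or 0.0484%. The control set that B-ALL lacked had 7, by the same rules, all of them SNVs. These 7 were among 605 SNVs, and the 12 of B-ALL among 1653, so the larger count in B-ALL is not a larger share. By the same rule against the control, AML had 17 among 1700 SNVs and T-ALL 12 among 2348. No stop gain or splicing change was among the B-ALL SNVs, and 10 SNVs were synonymous.

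B-ALL alone carried 2 of the 13. The first was R210C in exon 6 of Trp53, the p53 tumour suppressor, at chromosome 11, position 69588703. It was on 8 of 27 reads (29.6%, 13.8 to 50.2), 4 on each strand, with a quality of 137, and no other library had a call there. The second was Q183H in exon 4 of Fmo6, a flavin monooxygenase gene (chromosome 1, position 162924370). It had 9 alternative reads of 24 (37.5%, 18.8 to 59.4). The interval of the Trp53 share holds the median of 0.388 of all SNVs of B-ALL alone.

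B-ALL and AML alone shared 4 missense SNVs. Krtap15, a hair keratin-associated gene, had R78W (chromosome 16, position 88829278) on 16 of 39 reads in B-ALL and 18 of 40 in AML. Pik3c2b, a class II phosphoinositide 3-kinase, had L1155V in exon 23 (chromosome 1, 133094784) on 7 of 22 reads in B-ALL and 8 of 23 in AML. Slc45a4, a solute carrier, had R112C in exon 3 (chromosome 15, 73589485) on 7 of 23 and 14 of 32. In these 3 genes the share was lower in B-ALL, but the exact intervals of B-ALL (25.6 to 57.9%, 13.9 to 54.9% and 13.2 to 52.9%) hold the AML value. Amz1, a metalloprotease gene, differed: E78Q in exon 3 (chromosome 5, 140741515) was on 11 of 16 reads in B-ALL (68.8%, 41.3 to 89.0) and 36 of 38 in AML (94.7%).

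The remaining 7 were found more widely. Gcsam, a signalling protein of germinal centre B cells, had D147N in exon 6 (chromosome 16, 45620034) on 16 of 31 reads in B-ALL, 23 of 40 in AML, 12 of 28 in M-MPAL and 20 of 30 in T-MPAL. Eppk1, a cytoskeletal linker, had E3048V on 35 of 124 reads, a variant known to dbSNP that T-ALL, AML and M-MPAL also had. Mroh2a had 4 missense SNVs (V140M, S750L, R1192L and P1373L) at depths of 83 to 161 reads, in a stretch of chromosome 1 (88212001 to 88298000) that B-ALL had at 10 copies. Copy number calls of the control and of the 4 other libraries with tables overlapped this stretch. The frameshift was a deletion in Zfp956, a zinc finger gene that the rule for names would only count and that is named after its values were seen. It removed 27 bases at an edge of exon 3, of which 10 are coding by the annotation (chr6:47957592-47957619), the first base being kept and the rest lost:
Zfp956: aGGCTCTCTAGGTAAGAGACATCCCCAG
It was on 8 of 33 reads in B-ALL and 13 of 20 in T-ALL, with 1 of the 8 alternative reads of B-ALL on the forward strand and 7 on the reverse.

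B-ALL had gained most of chromosome 16 and lost chromosome 19. The 239 gains summed to 71.2 Mb and the 15 losses to 58.0 Mb. No confidence score was given for 93 of the gains and 14 of the losses. Chromosome 16 held 68.97 Mb of the gains and chromosome 19 57.7 Mb of the losses, while the control had 0.036 Mb gained on 16 and 0 Mb lost on 19.

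The chromosome 16 gain was broken in B-ALL and nearly whole in AML. In B-ALL 122 calls at 3 copies formed 21 blocks from 3554001 to 98059000 that covered 72.9% of that span, against 10 blocks and 99.8% in AML. Both covered 68.9 Mb together, which was 99.98% of the B-ALL blocks and 73.05% of those of AML. The 4 largest gaps in B-ALL (5.72, 4.79, 4.71 and 2.98 Mb) lay 98.9 to 100% inside the AML gain. Chromosome 19 was called at 1 copy in 8 blocks from 3159001 to 61267000, 99.3% of that span. The AML copy number table used here ends on chromosome 17, so AML copy number on chromosome 19 was not analysed here.

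Read depth at SNVs gave the same chromosomes. At the 8248 SNVs called in all 7 libraries outside segmental duplications, the depth of B-ALL over T-ALL, relative to the other autosomes, was 1.27 on chromosome 16 (exact interval of the median 1.22 to 1.35, 284 sites) and 0.616 on chromosome 19 (0.565 to 0.689, 123 sites). It lay from 0.931 to 1.04 on the 17 other autosomes. For AML over T-ALL it was 1.34 (1.29 to 1.40) on chromosome 16 and 1.02 (0.931 to 1.06) on chromosome 19. Against the control B-ALL had 1.32 and 0.725, but there the other autosomes ranged from 0.865 to 1.25. These reads are also those behind the copy number calls, so this is another measure of the same library and not a second sample.

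The gaps of chromosome 16 were not at normal depth throughout. Within the 3-copy calls the relative depth was 1.35 (1.27 to 1.45, 228 sites). Between them it was 1.22 (1.02 to 1.48, 27 sites), an interval that holds the value within the calls, and in AML the same 27 sites had 1.24 (0.873 to 1.35). Before the first call it was 0.975 (0.880 to 1.035, 29 sites) in B-ALL and 1.18 (1.01 to 1.29) in AML.

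**Figure D5:**
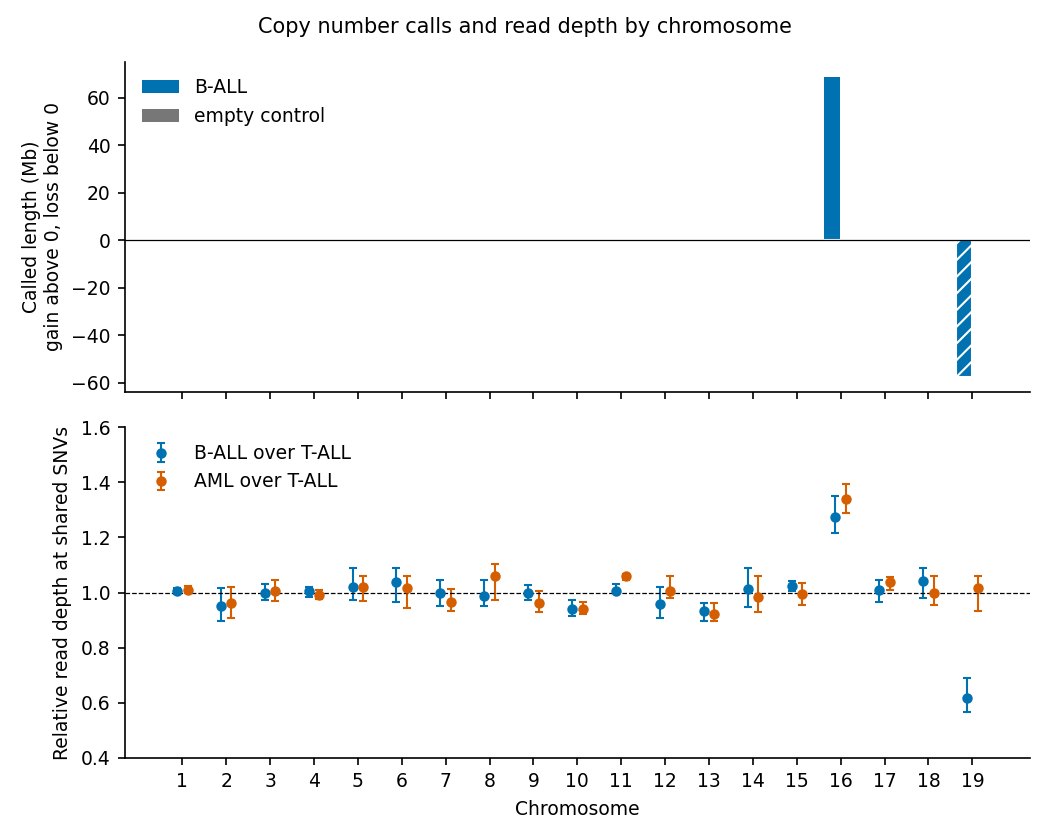
Length called as gained (above 0) or lost (below 0, hatched) per chromosome in B-ALL and the control, in Mb (top), and read depth at SNVs called in all 7 libraries over that of T-ALL, relative to the other autosomes, for B-ALL and AML (bottom; median with its 95% exact interval). Chromosome 16 is high in both leukaemias (1.27 and 1.34), and chromosome 19 is low in B-ALL alone of the pair (0.616 against 1.02).

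Alternative read shares did not set the changed chromosomes clearly apart. The median share was 0.525 (0.448 to 0.704) over the 80 SNVs on chromosome 16, 0.608 (0.50 to 0.778) over the 20 on chromosome 19 and 0.50 (0.476 to 0.50) over the 1553 on the other autosomes. Among the 12 chromosome 16 SNVs of B-ALL and AML alone it was 0.417 in B-ALL and 0.525 in AML, lower in B-ALL at 9 of 12. Chromosome 19 had 3 such SNVs, with medians of 0.471 in B-ALL and 0.50 in AML. These sites are too few to set against the other autosomes, where B-ALL was lower at 217 of 332.

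Genes of B-cell development lay on both changed chromosomes. Gains touched 3.39% of all protein-coding genes and losses 3.40%. Of the 31 genes of the B-cell development list on chromosomes 1 to 19, 3 (9.68%) were at 3 copies: Vpreb1, Vpreb2 and Igll1, which together encode the surrogate light chain of the pre-B receptor. Another 3 (9.68%) were at 1 copy on chromosome 19: Blnk, the adaptor of the pre-B receptor signal, Ms4a1, which encodes CD20, and Dntt, the terminal transferase that adds bases at immunoglobulin joins. Neighbouring genes share 1 call, so these are not separate events.

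Among 37 genes of human B-ALL, 3 were gained: Crebbp, a histone acetyltransferase, and the transcription factors Erg and Runx1. In that list 1 was lost, Jak2, a kinase of cytokine receptors. The p53 pathway list (22 genes) had 2 at 3 copies, the p53 relative Trp63 and Usp7, a deubiquitinase of the p53 pathway, and 1 at 1 copy, the death receptor Fas. The Myc network list (22 genes on these chromosomes) had 2 at 1 copy, Mxi1, a repressor that competes for Max, and the acetyltransferase Kat5, and none gained.

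Of 28 genes of cytokine, JAK-STAT, RAS and PI3K signalling, Socs1, an inhibitor of JAK kinases, was at 3 copies, and Jak2 was at 1. Of 40 DNA repair genes 1 was gained, Prkdc, the DNA-dependent kinase of end joining. Of 28 genes of chromatin, cohesin and splicing, Crebbp was gained and the cohesin gene Smc3 lost. The 10 named genes of chromosome 16 were at 3 copies in AML too.

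Small variants inside list genes were few. SNVs of the set lay within 1.97% of all protein-coding gene spans, and within 5 list genes. Besides Trp53 these were Dntt, with an intronic SNV on 8 of 13 reads in B-ALL alone in a simple repeat, and Lyn, a Src-family kinase of the B-cell receptor, with an intronic SNV on 9 of 24 reads in B-ALL and 6 of 12 in AML. Erg (10 of 11 reads) and Trp63 (10 of 10) had intronic SNVs that were shared more widely. By list, SNVs lay in 2 of 31 genes of B-cell development (6.45%), 2 of 37 of human B-ALL (5.41%) and 2 of 22 of the p53 pathway (9.09%). Trp53 counts in both of the latter lists. The Myc network, DNA repair, signalling and chromatin lists had 0. INDELs lay within 7.43% of all gene spans. The human B-ALL list had 12 of 37 genes with one (32.4%) and the chromatin list 8 of 28 (28.6%). The 5 other lists had from 4.55% (Myc network) to 10% (DNA repair), and B-cell development had 9.68%. The median span of the human B-ALL and chromatin lists was 69.8 kb and 65.4 kb, against 17.5 kb over all genes, and the part of gene length in these counts was not tested. Mycn, which encodes N-Myc, and Ptprc, whose CD45 product carries the B220 epitope, had no copy number call and no SNV of the set in their spans. Ptprc held 1 INDEL of the set.

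Copy number calls elsewhere were small. Outside chromosomes 16 and 19 there were 114 calls of 2.50 Mb in all, and 57.9% of them overlapped a control call. Among them were 6 losses to 1 copy, of which 5 carried no confidence score. These losses overlapped no call of the control, AML, T-ALL or MPAL tables. They were 195 kb on chromosome 6 (19213001 to 19408000) with the locus 4930524B17Rik, 42 kb on chromosome 11, 33 kb on chromosome 7 and 30 kb on chromosome 10 in Pcdh15, a protocadherin gene. The other two adjoined each other on chromosome 4 (6 and 2 kb) at Atp6v0d2, a proton pump subunit, and genes of losses under 50 kb were named after their values were seen.

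Gains of at least 50 kb that overlapped no control call numbered 3 outside these chromosomes. A stretch of 119 kb on chromosome 2 (122681001 to 122800000), with Sqrdl, Bloc1s6 and the zinc transporter gene Slc30a4, was at 9 copies, and a T-ALL call overlapped it. All T-ALL gains on chromosome 2 summed to 0.106 Mb, less than this stretch, and T-ALL also had 1 loss of 0.078 Mb on that chromosome. Whether the overlapping call was a gain is not given here. A stretch of 102 kb on chromosome 12 (16341001 to 16443000) with no annotated gene was at 3 copies and overlapped no call of another table. A stretch of 101 kb on chromosome 5 (91578001 to 91679000) at Parm1 was at 3 copies and was gained in AML as well. The chromosome 2 and chromosome 12 gains carried no confidence score, and the Parm1 gain had 27.3. The longest gains that overlapped a control call held, among others, the chitinase-like genes Chia1, Chil3 and Chil4 (187 kb, 5 copies), Ppp2r3d and Nlrp4g (197 kb, 4 copies) and Mucl1 (134 kb, 3 copies). An overlap may be small: the Ppp2r3d gain ran from 124279001 to 124476000 on chromosome 9. The last control call on that chromosome ended at 124281000, so most of this gain had no control call.

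The antigen receptor loci did not mark the B-ALL library as B-lineage at the level of copy number. B220 cannot be read from genomic DNA, and no B-ALL call touched Igh, Igk, Tra/Trd, Trb or Trg. Igl lay in a 3-copy call of chromosome 16, as in AML. In the same kind of table T-ALL had calls at 1 copy in Trb and Trg, and the control had none at any of the 6 loci.

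Small variants at these loci were few except in Igk. Igh, the heavy chain locus of 2754 kb on chromosome 12, held 2 SNVs and 3 INDELs of the set, and both SNVs were also called in T-ALL and in AML. Igk, the kappa light chain locus (chromosome 6, 67555636 to 70726754), held 33 SNVs, of which 32 lay in LTRs, against 4 in the control set that B-ALL lacked. Of these 33, 30 lay between 68245304 and 68250433, all in LTRs and all heterozygous, at depths of 45 to 106 reads and a median alternative share of 0.528. AML had 23 of the 30 and T-ALL 22, while AUL, M-MPAL and T-MPAL had 0 of these alleles. They did have other calls: in the denser of both groups there (68249223 to 68250433) AUL had 5 SNV calls of any quality, M-MPAL 7, T-MPAL 6 and the control 7, at median depths of 32 to 40 reads, against 21 at 81 in B-ALL. In the other group (68245304 to 68246811) these libraries had 0, except for 1 call in the control, against 15 in B-ALL. No copy number call of any table used here overlapped the dense groups there. The SNVs are thus shared with 2 leukaemias sorted on other lineage markers.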

How the data were processed

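Whole-genome DNA of 7 cell populations was read as pairs of 150 bp, planned at 30x, per the labels' protocols. The submitters' processing notes name BWA and mm10; for the callers, no version or filter is given in the sources used here. Per the file headers, each deposited variant has a quality score, its reads and its alternative reads, with dbSNP build 142 and repeat annotation, and each deposited copy number row has whole copies (2 is normal), a length in steps of 1 kb and a confidence score. The lowest deposited quality was 20. The AUL copy number table ends within chromosome 2 and was not used, and that of AML ends on chromosome 17. The 6 samples of integration sites were not used here.

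Calls were matched by chromosome, position and both alleles. Counts carry exact Poisson, shares exact Clopper-Pearson and medians exact order-statistic intervals at the 95% level. Relative depth is the median ratio of reads at SNVs called in all 7 libraries, divided by the median over autosomes other than 16 and 19. Gene spans came from RefSeq GRCm38.p6, and copy number starts were raised by 1 base. Alternatives changed depth, quality, read share, repeats, dbSNP, nearby calls, other libraries, and length, overlap or confidence of copy number calls. The selection was tested on simulated data, where it found 200 of 200 planted variants and 0 of 200 decoys. Scripts ran in Python 3.11.15 with pandas 2.3.3, numpy 2.4.6, scipy 1.17.1 and, for plots, matplotlib 3.10.9.

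The members and gene lists were chosen with earlier results of these data known. The named genes are list genes inside a copy number call or with a protein-altering variant (at most 10 for chromosome 16 and for 19), other genes with a protein-altering variant, except olfactory, vomeronasal, Gm, Rik and Zfp genes, genes inside other copy number calls of at least 50 kb (at most 15, longest first), and Trp53, Mycn, Ptprc and the receptor loci. Genes named by SNVs near a start or in an intron, and the repeats shown, were chosen after their values were seen. Of the items that these rules name, some are not reported here.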

Additional observations from a re-analysis of the deposited data

Results flagged for a closer look

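The X chromosome lay outside the comparison, which used chromosomes 1 to 19. With the same thresholds B-ALL had 113 SNVs on X that the control lacked, against 13 of the control that B-ALL lacked, and AML had called 93 of the 113. It had 274 INDELs on X that the control lacked, against 129 in the other direction. The sources used here do not give the sexes of the mice. Both values are given because they lie above the level of the control; the cause was not tested.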

How the results depend on the processing

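Of 49 alternative values, 20 stayed within the spread allowed for them (1.5 times for counts, the 95% interval for shares and medians) and 29 moved. The SNV count of 1653 became 4170 with a quality of at least 20, 2989 with segmental duplications, 703 outside repeats, 857 without dbSNP variants and 204 with no call in any other library. The INDEL count of 5551 became 1863 with at least 20 reads, 46363 with a quality of at least 20, 166 outside repeats and 1414 with no call in any other library. The share also called in AML became 59.95% for SNVs and 24.8% for INDELs when the AML call had to pass the same thresholds; for INDELs it was 73.5% outside repeats and 40.1% with at least 20 reads. Among variants with no call in T-ALL, AUL or MPAL, a choice added after seeing the data, it was 62.98% and 32.6%. The C>T share of 36.1% became 42.8% outside dbSNP, 40.2% with at least 20 reads and 30.7% among SNVs not called in AML. The median alternative share was 0.435 on chromosome 16 and 0.432 on the other autosomes with at least 20 reads, 0.429 and 0.386 with no call elsewhere, and 0.464 on the other autosomes outside repeats. The 13 protein-altering variants became 34 with a quality of at least 20, 8 with a share of at least 0.3 (which Trp53 does not reach) and 2 with no call elsewhere. The gained length of 71.2 Mb became 0.505 Mb, and the lost length of 58.0 Mb 0.002 Mb, with the highest confidence score of 100, since few rows carry it. The lost length became 13.6 Mb without losses that overlap a control call, since 4 long rows of chromosome 19 hold short control gains. No paired analysis was possible because each group has 1 library, and for the same reason no replicate could be left out.

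The median depth of B-ALL at SNVs called in all 7 libraries was 11 reads on chromosome 19 and 30 on the autosomes other than 16 and 19. Its part in the number of variants there was not tested. Read shares near 27 reads carry intervals such as 13.8 to 50.2%.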
